A study of Mus musculus with 10 samples.

Results

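The 42 genes described here encode collagen chains. They were chosen by name, as every gene whose symbol is Col, a type number, the letter a and a chain number in the platform's annotation, out of 19505 genes named on the array, and each was read by 1 probe set. Wolffian ducts, from which the male excurrent ducts form, came from mouse embryos of 16.5 days post-coitum and were held at an air-liquid interface for 72 h. They received 0.5 µM SAG, a Smoothened agonist that switches hedgehog signalling on (4 arrays), 25 µM cyclopamine, a Smoothened inhibitor that switches it off (3 arrays), or culture medium alone, named vehicle in the sample titles (3 arrays). The labels give no genotype or strain and do not say whether the medium carried the compounds' solvent. The titles call the tissue pronephros, while the protocols describe Wolffian ducts. All values are log2 array signals, so a difference of 1 is a doubling of signal, and changes are given as mean ± SE of the fit.

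Collagens are extracellular proteins built from 3 chains wound into a triple helix. Fibrillar collagens form the load-bearing fibrils of connective tissue, type IV collagen forms the sheet that underlies epithelia and wraps smooth muscle and vessels, type VI forms beaded filaments next to cells, and fibril-associated collagens coat the fibrils. In a developing duct the mesenchyme makes most fibrillar collagen, while epithelium, muscle and vessels share in making the basement membrane. Of the 42 genes, 11 are fibrillar, 6 belong to type IV, 6 to type VI, 8 are fibril-associated, 3 form short-chain networks, 2 are multiplexins of the basement membrane zone, 4 span the membrane and 2 fit none of these. Collagen VII and XII genes were not analysed here. Col5a3, Col8a1, Col10a1, Col17a1 and Col19a1 had group means below the lower quartile of all probe set means (5.19) in all 3 groups.

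All 11 measured duct epithelium markers and 8 smooth muscle markers had mean signal above the lower quartile of all probe sets. So did 9 markers of mesenchyme and fibroblasts and the measured endothelial, macrophage and mesothelial markers. Most probe sets lie above that level by definition, so it does not show which tissues were present. The median signal of an array was 7.55 to 7.70. Pairs of arrays within a group differed with an SD of 0.35 to 0.60 over all probe sets and 0.37 to 0.66 over the collagen genes. Over all probe sets cyclopamine replicate 2 stood apart, with SDs of 0.598 and 0.595 against the other cyclopamine arrays, while every other pair was at 0.468 or less. Over the collagen genes the highest was 0.663, between SAG replicates 1 and 3. Hedgehog output followed the labels, with Gli1, a transcription factor that the pathway induces, at 13.24 to 13.61 on the SAG arrays, 4.56 to 5.37 on the cyclopamine arrays and 11.43 to 12.63 on the vehicle arrays.

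Start-site sequence was available for 34 of the 42 genes, as windows of 250 bases before and 50 after the RefSeq start (assembly GRCm38.p6). The sequences below are examples from both directions of response and not a ranking by size. Col6a5 and Col6a6 stand for the genes lower with SAG than with cyclopamine, the region shared by Col4a1 and Col4a2 for the pair with the largest positive change, and Col1a2, Col16a1 and Col6a1 for the fibrillar, fibril-associated and beaded filament genes that were higher. They are read 5′ to 3′ on the strand of the gene, 120 bases up to the start. For Col4a1 and Col4a2, which lie next to each other on chromosome 8 on opposite strands, the windows overlap by 78 bases, and 30 of the shared bases are given on the strand of Col4a2. Capitals mark a GC box (GGGCGG) or a CCAAT box, each searched on both strands, and no marked match overlaps another.
Col4a1 and Col4a2, chr8:11312800-11312829, plus strand: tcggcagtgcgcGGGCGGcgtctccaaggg
Col1a2, chr6:4505498-4505617, plus strand: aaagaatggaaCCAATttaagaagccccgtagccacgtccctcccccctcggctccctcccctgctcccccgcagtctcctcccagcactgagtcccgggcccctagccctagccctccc
Col16a1, chr4:130047720-130047839, plus strand: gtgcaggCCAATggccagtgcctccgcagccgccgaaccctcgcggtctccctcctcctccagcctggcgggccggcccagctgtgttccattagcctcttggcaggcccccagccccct
Col6a1, chr10:76726045-76726164, minus strand: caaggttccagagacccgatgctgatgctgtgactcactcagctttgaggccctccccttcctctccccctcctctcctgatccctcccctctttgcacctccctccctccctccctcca
Col6a5, chr9:105960644-105960763, minus strand: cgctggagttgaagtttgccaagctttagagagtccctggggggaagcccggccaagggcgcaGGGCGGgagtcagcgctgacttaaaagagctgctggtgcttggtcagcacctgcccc
Col6a6, chr9:105828086-105828205, minus strand: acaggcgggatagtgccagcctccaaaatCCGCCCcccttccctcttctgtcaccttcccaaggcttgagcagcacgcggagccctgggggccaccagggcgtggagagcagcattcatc

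Over the full windows, a GC box was present in 21 of the 34 collagen genes (61.8%) and in 38.2% of 27025 genes with a window. A CCAAT box was present in 12 (35.3%), against 41.1% of all genes, and TATAAA in 5 (14.7%), against 15.7%. The letters GACCACCCA, a core often given for GLI factors, were in the windows of 0 of the 34 genes and of 0.289% of all genes. These matches describe letters in a window of 300 bases and say nothing about binding elsewhere.

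SAG against cyclopamine is the comparison between the pathway switched on and off. Most fibrillar genes, the type IV pair Col4a1 and Col4a2, the common type VI chains and the fibril-associated Col14a1 and Col16a1 were higher with SAG, while Col6a5, Col6a6, Col15a1 and Col27a1 were lower. In all, 20 of 42 genes passed the test (limma adjusted p under 0.05), 16 higher and 4 lower, against 11.3% of all probe sets (5.42% higher and 5.92% lower). Their median change was 0.27, against 0.01 over all probe sets. In 21 genes the arrays of the groups did not overlap, against 21.2% of probe sets, 17 with SAG above (10.7%) and 4 below (10.5%).

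**Figure D1:**
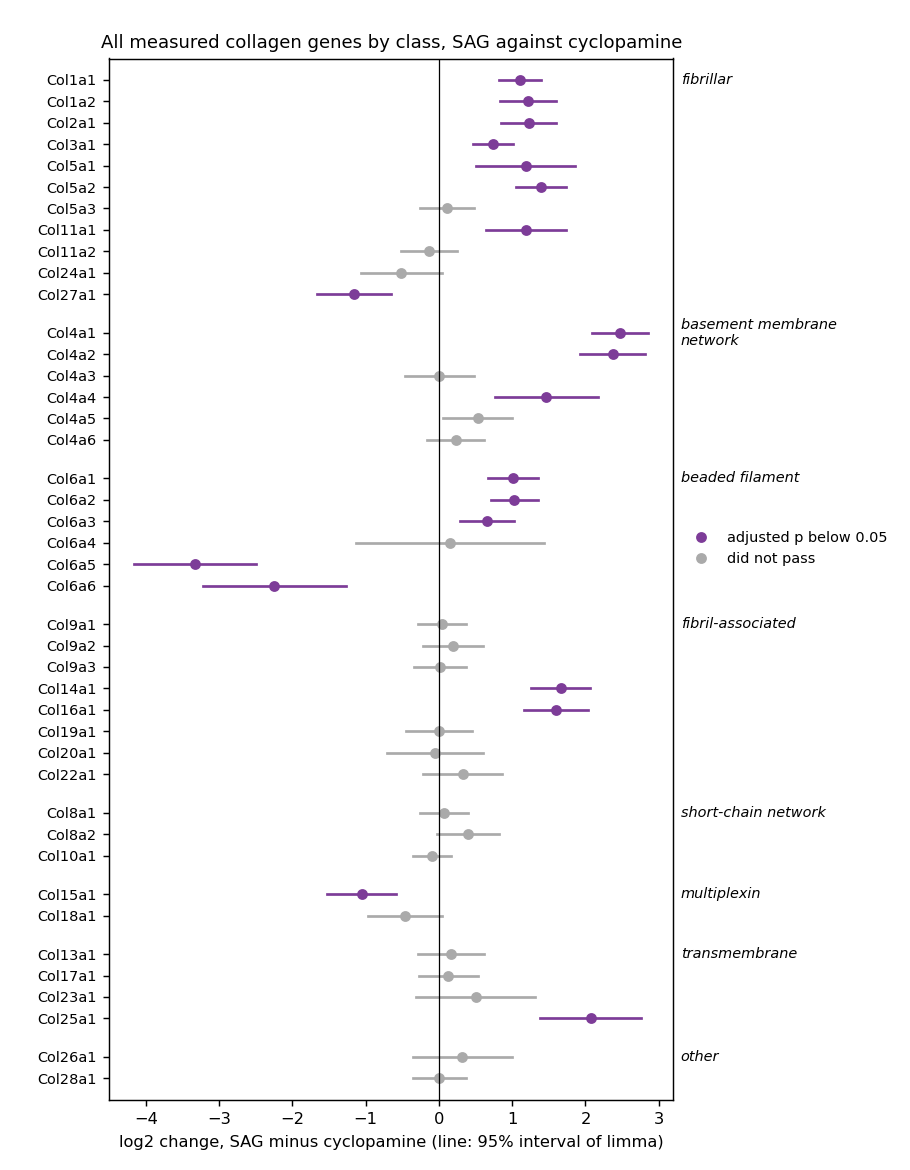
Log2 change (SAG minus cyclopamine, x axis) of all 42 collagen genes, grouped by class (rows), with 95% intervals from limma as lines; purple genes passed the test and grey ones did not. Changes run from -3.33 for Col6a5 to 2.47 for Col4a1.

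Cyclopamine against vehicle, which asks what the cultures lose when their own hedgehog signal is blocked, gave falls. Of 42 genes, 12 fell, 0 rose and 30 did not pass, against 5.12% of all probe sets called (2.95% lower and 2.17% higher). At an unadjusted p under 0.05 in limma, 19 were lower and 2 higher, against 9.9% and 8.96% of all probe sets. Arrays did not overlap for 20 genes, against 23.1% of probe sets, 18 with cyclopamine below vehicle (11.9% of probe sets) and 2 above (11.2%). The median change was -0.26, against 0.02 over all probe sets. The count was 6 without cyclopamine replicate 1 or 3 or without vehicle replicate 1, 2 or 3, and 5 with only the cyclopamine and vehicle arrays in the fit.

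SAG against vehicle, which asks what added pathway activity does, gave 2 calls among the 42 genes, a rise of Col14a1 and a fall of Col6a5, against 0.73% of all probe sets called (0.45% higher and 0.279% lower). Arrays did not overlap in 20 genes, against 12.9% of probe sets, with SAG above vehicle in 15 (6.25% of probe sets) and below in 5 (6.63%). At an unadjusted p under 0.05 in limma, 12 genes were higher and 8 lower, against 5.25% and 5.51% of all probe sets. The median change was 0.13, against 0.01 over all probe sets. The count of 2 was 0 without SAG replicate 2, 3 or 4 or vehicle replicate 1 or 2, 1 without cyclopamine replicate 3 or vehicle replicate 3, and 4 without cyclopamine replicate 2, which enters only through the shared estimate of spread. The comparisons with vehicle share the 3 vehicle arrays.

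**Figure D2:**
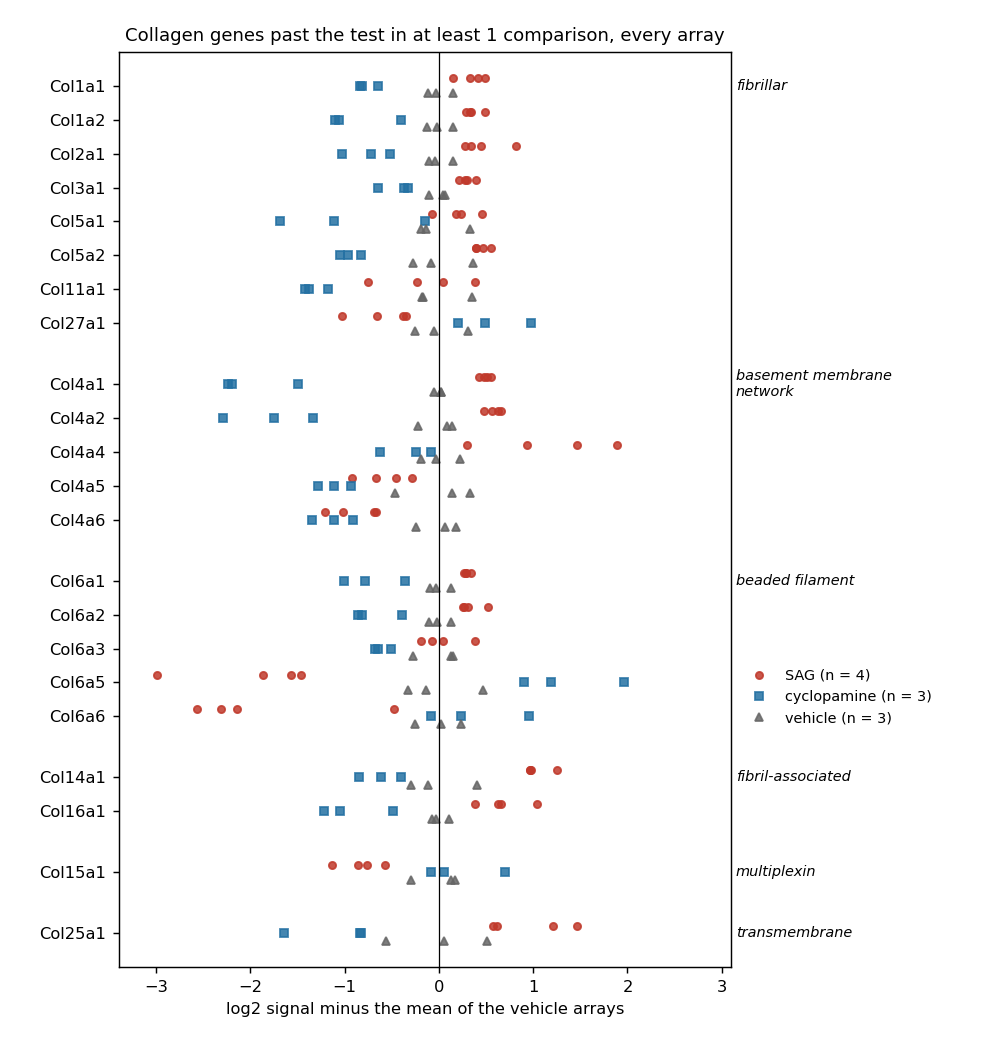
Log2 signal of every array minus the mean of the vehicle arrays (x axis) for the 22 collagen genes past the test in at least 1 comparison (rows, grouped by class); red circles are SAG, blue squares cyclopamine and grey triangles vehicle arrays. For Col4a1 and Col4a2 all SAG arrays lie right of all vehicle arrays and all cyclopamine arrays left of them, while for Col6a5 the order is the opposite.

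Markers of several tissues moved with the same groups. In bulk tissue, fewer cells of a type and less RNA per cell cannot be told apart. Mesenchyme and fibroblast markers had list means of 13.43 to 13.59 with SAG, 11.94 to 12.13 with cyclopamine and 13.09 to 13.22 with vehicle. With cyclopamine against vehicle 5 of 9 fell, against 2.95% of all probe sets lower. Twist2 (-2.43 ± 0.25) and Tcf21 (-2.40 ± 0.21) fell most. The 4 that did not pass included Pdgfrb (-0.36 ± 0.30) and Twist1 (-0.23 ± 0.22), so the markers did not fall evenly. Smooth muscle markers were at 11.74 to 11.95 with SAG, 9.53 to 10.07 with cyclopamine and 12.11 to 12.56 with vehicle. Of these, 6 of 8 fell with cyclopamine against vehicle. With SAG their list means also lay below those with vehicle, though 0 of 8 markers passed. At an unadjusted p under 0.05 in limma 5 were lower and 0 higher, against 5.51% and 5.25% of all probe sets. Duct epithelium markers were at 10.23 to 10.87 with SAG, 12.91 to 13.71 with cyclopamine and 11.42 to 12.29 with vehicle, the direction shown by Col6a5. Endothelial markers were at 10.46 to 11.04 with SAG, 8.32 to 9.93 with cyclopamine and 9.80 to 10.78 with vehicle, the lowest value being that of cyclopamine replicate 2. Macrophage markers overlapped between all groups, at 10.01 to 10.83 with SAG, 9.76 to 11.45 with cyclopamine and 10.17 to 10.69 with vehicle. Mesothelial markers, at 8.61 to 9.72 with SAG, 9.27 to 11.76 with cyclopamine and 9.04 to 9.14 with vehicle, overlapped between SAG and the other groups, with cyclopamine replicate 2 the lowest of its group (9.27). Kidney markers were at 7.53 to 8.001 with SAG, 8.12 to 8.56 with cyclopamine and 7.79 to 7.86 with vehicle, and Umod and Slc34a1 among them lay below the lower quartile of probe sets. Dcn and Lum stood both among the mesenchyme markers and among the fibril-binding proteins described below, so these lists are not independent. The part of these markers in the collagen changes was not tested.

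Counts by class, here and below, stand against the shares of all probe sets called. These were 5.42% higher and 5.92% lower for SAG against cyclopamine. They were 2.17% and 2.95% for cyclopamine against vehicle, and 0.45% and 0.279% for SAG against vehicle. For SAG against vehicle at an unadjusted p under 0.05 in limma, the shares were 5.25% higher and 5.51% lower. Fibrillar collagen genes were higher with SAG than with cyclopamine in 7 of 11 cases, 1 was lower and 3 did not pass (median change 1.11). Against vehicle, 5 of 11 fell with cyclopamine (median -0.76). With SAG 0 of 11 passed, 4 being higher and 1 lower at an unadjusted p under 0.05 in limma (median 0.20).

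Type I collagen, the main fibril of connective tissue, is built from Col1a1 and Col1a2 chains. Col1a1 was at 16.36, 16.62, 16.54 and 16.70 on the SAG arrays, 15.37, 15.57 and 15.40 on the cyclopamine arrays and 16.10, 16.18 and 16.35 on the vehicle arrays. Col1a2 was at 16.68, 16.67, 16.63 and 16.83 with SAG, 15.23, 15.94 and 15.28 with cyclopamine and 16.21, 16.32 and 16.49 with vehicle. For both genes every SAG array lay above every vehicle array and every cyclopamine array below. Col1a1 fell by 0.76 with cyclopamine (SE 0.14, limma adjusted p = 0.0114) and Col1a2 by 0.86 (SE 0.19, limma adjusted p = 0.0269). Between SAG and cyclopamine the differences were 1.11 ± 0.13 and 1.22 ± 0.17 (2.16-fold and 2.32-fold, limma adjusted p = 0.000322 and 0.00118). The changes of 0.35 ± 0.13 and 0.36 ± 0.17 with SAG against vehicle did not pass.

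Col3a1, the single chain of type III collagen, which accompanies type I in soft tissue, was at 16.91, 16.84, 16.92 and 17.02 with SAG, 16.30, 16.26 and 15.99 with cyclopamine and 16.52, 16.69 and 16.68 with vehicle. Its groups stood in the same order without overlap. It was 1.67-fold higher with SAG than with cyclopamine (0.74 ± 0.12, limma adjusted p = 0.00284). Neither compound passed against vehicle (0.29 ± 0.12 with SAG, -0.45 ± 0.13 with cyclopamine, 95% interval -0.74 to -0.16, limma adjusted p = 0.413 and 0.0820).

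Type V chains enter type I fibrils and limit their width. Col5a2 was at 11.95, 11.87, 11.88 and 12.03 with SAG, 10.66, 10.52 and 10.43 with cyclopamine and 11.21, 11.40 and 11.85 with vehicle, again in that order without overlap. It fell by 0.95 with cyclopamine (SE 0.17, limma adjusted p = 0.00980) and was 2.63-fold higher with SAG than with cyclopamine (1.40 ± 0.16, limma adjusted p = 0.000256). Col5a1 was at 13.10, 12.79, 13.32 and 13.04 with SAG, 11.74, 12.72 and 11.17 with cyclopamine and 12.66, 12.72 and 13.19 with vehicle. Cyclopamine replicate 2 lay among the vehicle arrays, and the change against vehicle did not pass with it (-0.98 ± 0.33, limma adjusted p = 0.124) and passed without it (-1.40, limma adjusted p = 0.00769). SAG exceeded cyclopamine by 1.18 ± 0.31 (limma adjusted p = 0.0298). Col5a3, a dim probe set, was at 0.11 ± 0.17.

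Col11a1, a chain of the thin type XI fibrils that seed larger ones, was at 7.83, 8.97, 8.63 and 8.36 with SAG, 7.20, 7.16 and 7.41 with cyclopamine and 8.94, 8.40 and 8.41 with vehicle. SAG and vehicle arrays overlapped, and the cyclopamine arrays lay below both. It fell by 1.33 with cyclopamine (SE 0.26, 2.51-fold, limma adjusted p = 0.0175) and was higher with SAG than with cyclopamine by 1.19 ± 0.24 (limma adjusted p = 0.00959). Its partner chain Col11a2 was at -0.14 ± 0.17 in that comparison (95% interval -0.51 to 0.24).

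Col2a1, the cartilage fibril chain, had low signal, at 6.98, 6.81, 6.87 and 7.35 with SAG, 5.51, 6.01 and 5.81 with cyclopamine and 6.69, 6.43 and 6.49 with vehicle. It fell by 0.76 with cyclopamine (SE 0.18, limma adjusted p = 0.0391), and SAG exceeded cyclopamine by 1.22 ± 0.17 (limma adjusted p = 0.000911). Of 7 cartilage markers, the matrilin genes Matn1 and Matn3 and Chad lay below the lower quartile of probe sets. The list mean overlapped between groups, at 6.86 to 7.28 with SAG, 6.86 to 7.64 with cyclopamine and 7.23 to 7.45 with vehicle. Single markers moved in opposite directions. Hapln1 was higher with SAG than with cyclopamine (2.19 ± 0.44, limma adjusted p = 0.00886). Cnmd was lower (-2.76 ± 0.69, limma adjusted p = 0.0248), and the other 5 did not pass. Hapln1 also fell with cyclopamine against vehicle (-1.91 ± 0.48, limma adjusted p = 0.0455).

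Col27a1, a chain of thin fibrils known from cartilage, ran the other way. It was at 8.35, 8.08, 8.38 and 7.71 with SAG, 9.23, 8.94 and 9.71 with cyclopamine and 9.04, 8.48 and 8.68 with vehicle. SAG was below cyclopamine by 1.16 (log2 change -1.16 ± 0.23, limma adjusted p = 0.00739), with no overlap. Neither change against vehicle passed (-0.60 ± 0.23 with SAG and 0.56 ± 0.24 with cyclopamine). Col24a1, a minor fibrillar chain, was at -0.51 ± 0.25 between SAG and cyclopamine and did not pass.

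For cyclopamine against vehicle, the calls of Col1a1 and Col5a2 held with any single array left out. Col1a2 ended without cyclopamine replicate 1 or 3 or vehicle replicate 1, 2 or 3 (limma adjusted p 0.0650 to 0.0896). Col2a1 ended on omission of each array other than SAG replicate 4 and cyclopamine replicate 2 (0.0510 to 0.135), and with each array centred on its median. Col11a1 ended without cyclopamine replicate 1 (0.0526) or vehicle replicate 1 (0.0743). With only the compared groups in the fit, Col1a2, Col2a1 and Col5a2 ended. For SAG against cyclopamine, the call of Col5a1 ended without SAG replicate 1, 3 or 4 or cyclopamine replicate 1 or 3 (0.0614 to 0.102), and with only the compared groups in the fit, and those of the other fibrillar genes held with any single array left out.

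Among type IV genes, Col4a1 and Col4a2 moved together, as did Col4a5 and Col4a6, while Col4a3 and Col4a4 did not. Of the 6, 3 were higher with SAG than with cyclopamine and 0 lower, and 4 fell with cyclopamine against vehicle (median -1.12). With SAG against vehicle 0 passed, 4 being higher and 2 lower at an unadjusted p under 0.05 in limma (median 0.50). Col4a1 and Col4a2, whose chains make the basement membrane network found in most tissues, had the widest separation of all collagen genes that were higher with SAG. Col4a1 was at 11.02, 10.90, 10.98 and 10.95 on the SAG arrays, 8.97, 8.23 and 8.28 on the cyclopamine arrays and 10.49, 10.49 and 10.42 on the vehicle arrays. Col4a2 was at 12.59, 12.50, 12.64 and 12.67 with SAG, 10.68, 10.27 and 9.73 with cyclopamine and 11.80, 12.16 and 12.10 with vehicle. In both genes every SAG array exceeded every vehicle array and every vehicle array exceeded every cyclopamine array. Cyclopamine lowered Col4a1 by 1.98 (SE 0.18, 3.93-fold, limma adjusted p = 0.000316) and Col4a2 by 1.79 (SE 0.21, 3.46-fold, limma adjusted p = 0.00172). SAG exceeded cyclopamine 5.53-fold for Col4a1 (2.47 ± 0.17, limma adjusted p = 1.44e-05) and 5.18-fold for Col4a2 (2.37 ± 0.20, limma adjusted p = 4.82e-05). These 4 calls held with any single array left out. With SAG against vehicle the changes of 0.49 ± 0.17 and 0.58 ± 0.20 did not pass (limma adjusted p = 0.307 and 0.293).

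Col4a5 and Col4a6, whose chains form the network described around smooth muscle and some epithelia, lay lower with cyclopamine. Col4a6 was at 9.25, 9.58, 9.60 and 9.06 with SAG, 9.35, 8.92 and 9.16 with cyclopamine and 10.03, 10.45 and 10.33 with vehicle. Col4a5 was at 9.33, 9.80, 9.97 and 9.58 with SAG, 9.32, 9.14 and 8.97 with cyclopamine and 9.79, 10.58 and 10.40 with vehicle. The vehicle arrays were the highest for Col4a6 without overlap, while for Col4a5 2 SAG arrays reached the range of vehicle. Cyclopamine lowered Col4a6 by 1.12 (SE 0.19, limma adjusted p = 0.00809) and Col4a5 by 1.11 (SE 0.23, limma adjusted p = 0.0201). The Col4a5 call ended without cyclopamine replicate 3 or vehicle replicate 2 or 3 (limma adjusted p 0.0670 to 0.0758), and with only the compared groups in the fit. With SAG, Col4a6 was at -0.90 ± 0.18 and just missed the threshold (limma adjusted p = 0.0517), and it passed without cyclopamine replicate 2 (0.0326). Col4a5 was at -0.59 ± 0.21. Between SAG and cyclopamine the pair differed by 0.53 ± 0.21 (Col4a5) and 0.23 ± 0.18 (Col4a6, 95% interval -0.16 to 0.62), and neither passed.

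Col4a3 and Col4a4, whose chains join Col4a5 in the kidney glomerulus, did not move as a pair. Col4a4 was at 10.99, 10.57, 9.41 and 10.03 with SAG, 8.48, 9.02 and 8.86 with cyclopamine and 8.92, 9.33 and 9.07 with vehicle. The SAG arrays spread over more than 1 log2 unit and all lay above both other groups. SAG exceeded cyclopamine by 1.47 ± 0.32 (limma adjusted p = 0.0123), a call that ended without cyclopamine replicate 1 (0.0542). Against vehicle SAG gave 1.15 ± 0.32 and missed the threshold (limma adjusted p = 0.171). Col4a3 was at 7.80 to 8.26 with SAG, 7.74 to 8.23 with cyclopamine and 7.04 to 7.79 with vehicle, with a change of 0.00 ± 0.21 between SAG and cyclopamine (95% interval -0.47 to 0.47).

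**Figure D3:**
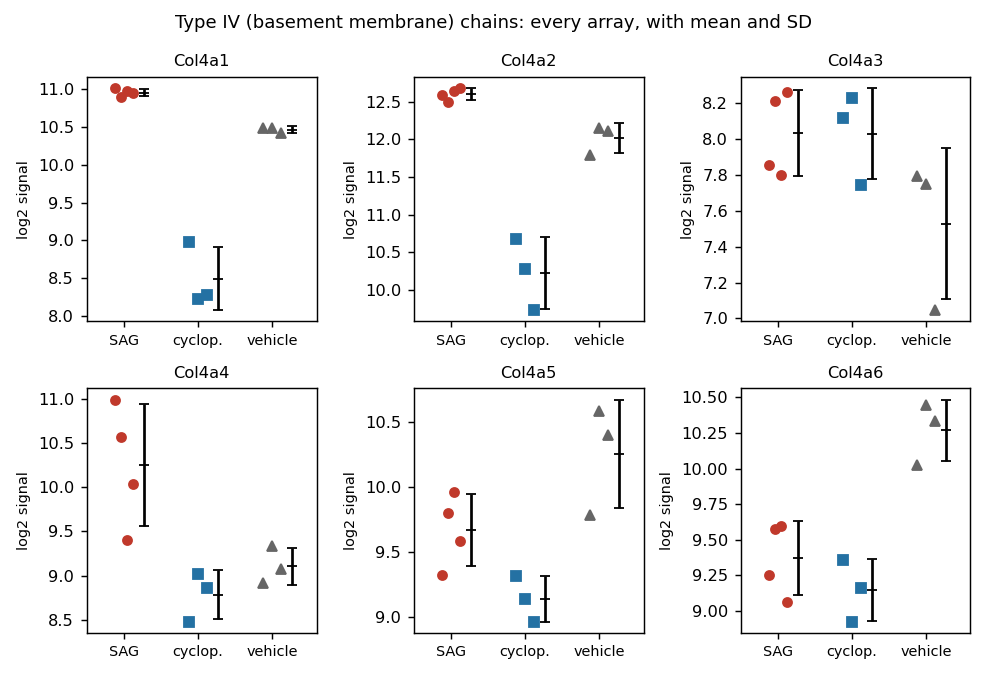
Log2 signal (y axis) of the 6 type IV genes on every array, with the mean and SD of each group (bars) for SAG, cyclopamine and vehicle; each panel has its own scale. Col4a1 and Col4a2 are lowest with cyclopamine, Col4a5 and Col4a6 highest with vehicle, and Col4a4 highest with SAG.

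The common type VI chains were higher with SAG than with cyclopamine, and the alternative long chains Col6a5 and Col6a6 were lower. The alternative chain Col6a4 did not pass (0.15 ± 0.58). In that comparison 3 of the 6 type VI genes were higher and 2 lower. Against vehicle, 2 fell with cyclopamine and 1 with SAG. Col6a1, Col6a2 and Col6a3 form the usual beaded filament, and the chains of Col6a4, Col6a5 and Col6a6 can stand in for that of Col6a3. Col6a1 was at 15.10, 15.06, 15.05 and 15.03 with SAG, 13.76, 14.40 and 13.98 with cyclopamine and 14.73, 14.67 and 14.90 with vehicle. Col6a2 was at 15.16, 15.43, 15.18 and 15.22 with SAG, 14.06, 14.52 and 14.10 with cyclopamine and 14.89, 14.81 and 15.04 with vehicle. For both, the 3 groups stood in the order SAG, vehicle, cyclopamine from high to low without overlap. Cyclopamine lowered Col6a1 by 0.72 (SE 0.16, limma adjusted p = 0.0321) and Col6a2 by 0.69 (SE 0.16, limma adjusted p = 0.0313). SAG exceeded cyclopamine 2.02-fold and 2.04-fold (1.01 ± 0.15 and 1.03 ± 0.15, limma adjusted p = 0.00161 and 0.00108). The Col6a1 fall ended without SAG replicate 2 or 3, cyclopamine replicate 1 or 3 or vehicle replicate 1, 2 or 3 (limma adjusted p 0.0510 to 0.103), and that of Col6a2 without cyclopamine replicate 1 or 3 or vehicle replicate 1, 2 or 3 (0.0650 to 0.101). Both falls also ended with each array centred on its median and with only the compared groups in the fit.

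Col6a3 was at 13.28, 13.40, 13.51 and 13.85 with SAG, 12.82, 12.96 and 12.79 with cyclopamine and 13.19, 13.60 and 13.61 with vehicle. SAG and vehicle overlapped and cyclopamine lay below both. SAG exceeded cyclopamine by 0.65 ± 0.16 (limma adjusted p = 0.0262), a call that ended without SAG replicate 3 or 4 or cyclopamine replicate 1 or 3 (0.0567 to 0.0866). Cyclopamine against vehicle did not pass (-0.61 ± 0.18, limma adjusted p = 0.0769).

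Col6a5 had the largest response of the 42 genes in SAG against cyclopamine, and it was downward. It was at 7.67, 7.27, 6.14 and 7.57 with SAG, 11.10, 10.04 and 10.33 with cyclopamine and 9.60, 8.99 and 8.81 with vehicle. All SAG arrays lay below all vehicle arrays, and all cyclopamine arrays above them. SAG against cyclopamine was -3.33 ± 0.38 (limma adjusted p = 0.000285), which held with any single array left out. With SAG it fell by 1.97 against vehicle (SE 0.38, 3.93-fold, limma adjusted p = 0.0457). That call ended without SAG replicate 2, 3 or 4, cyclopamine replicate 3 or vehicle replicate 1, 2 or 3 (0.0613 to 0.186), and when quantile normalization was applied again. Cyclopamine gave 1.35 ± 0.40 against vehicle and missed the threshold (limma adjusted p = 0.0878), though it passed without SAG replicate 3 (0.0349).

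Col6a6, its neighbour on chromosome 9, was at 10.29, 8.62, 8.20 and 8.45 with SAG, 11.73, 10.68 and 11.003 with cyclopamine and 10.79, 10.52 and 11.002 with vehicle. SAG replicate 1 stood above the other SAG arrays, and all 4 lay below both other groups. SAG against cyclopamine was -2.24 ± 0.44 (4.74-fold lower, limma adjusted p = 0.00746), which held with any single array left out. Against vehicle SAG was at -1.88 ± 0.44 (limma adjusted p = 0.10), and at -2.34 with a limma adjusted p = 0.00379 without SAG replicate 1. Cyclopamine and vehicle overlapped (0.37 ± 0.47). Col6a4, next to Col6a5 on the same chromosome, ranged widely within groups, from 6.58 to 8.94 with SAG, 7.02 to 8.48 with cyclopamine and 8.57 to 10.43 with vehicle. Its changes of -1.95 ± 0.58 and -2.10 ± 0.62 against vehicle did not pass (limma adjusted p = 0.207 and 0.0856).

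**Figure D4:**
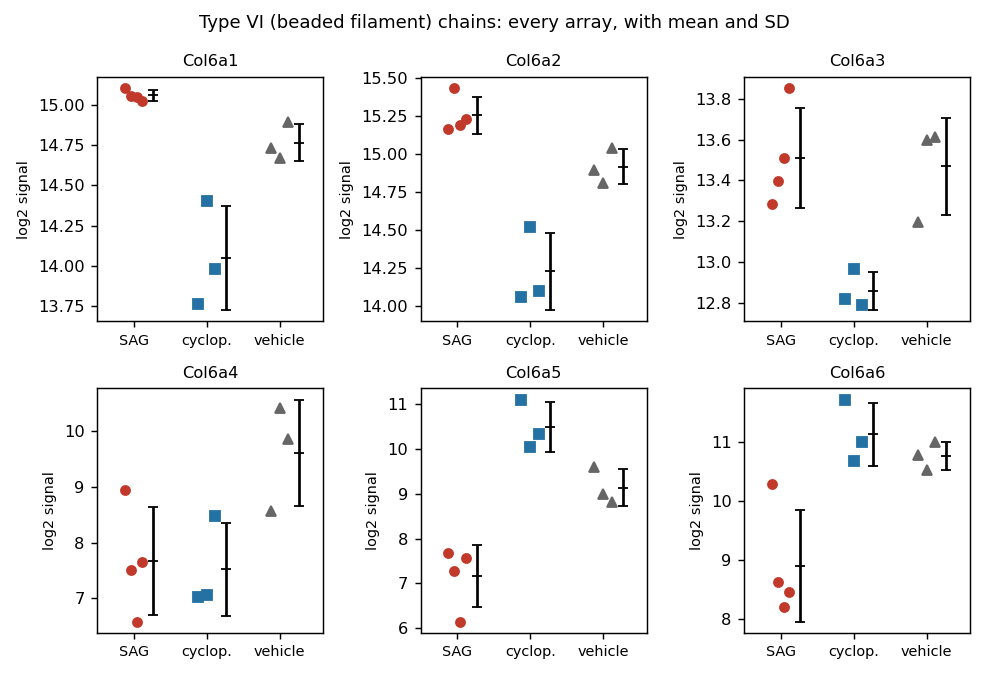
Log2 signal (y axis) of the 6 type VI genes on every array, with the mean and SD of each group (bars) for SAG, cyclopamine and vehicle; each panel has its own scale. Cyclopamine arrays are lowest for Col6a1, Col6a2 and Col6a3, and SAG arrays are lowest for Col6a5 and Col6a6.

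Of the 8 fibril-associated genes, 2 were higher with SAG than with cyclopamine, against 5.42% of all probe sets, and 6 did not pass. Col14a1, which coats type I fibrils during tissue growth, was at 10.99, 10.71, 10.71 and 10.72 with SAG, 9.12, 9.34 and 8.89 with cyclopamine and 9.63, 9.45 and 10.15 with vehicle. The groups did not overlap, and SAG replicate 1 lay above 3 nearly equal SAG arrays. It rose by 1.04 ± 0.18 with SAG against vehicle (2.06-fold, limma adjusted p = 0.0310), a call that ended without any one SAG array or without vehicle replicate 1 or 2 (0.0648 to 0.176). Cyclopamine against vehicle was -0.62 ± 0.19 and did not pass (limma adjusted p = 0.101). SAG exceeded cyclopamine 3.17-fold (1.66 ± 0.18, limma adjusted p = 0.000230).

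Col16a1, found at fibrils and near basement membranes, was at 11.15, 11.11, 10.87 and 11.53 with SAG, 9.27, 10.01 and 9.44 with cyclopamine and 10.41, 10.46 and 10.60 with vehicle. Here too no groups overlapped, with SAG highest and cyclopamine lowest. It fell by 0.92 with cyclopamine (SE 0.21, limma adjusted p = 0.0348), and SAG exceeded cyclopamine 3.02-fold (1.59 ± 0.20, limma adjusted p = 0.000493). The fall ended without SAG replicate 2, cyclopamine replicate 1 or 3 or vehicle replicate 1, 2 or 3 (0.0533 to 0.105), with each array centred on its median and with only the compared groups in the fit. The calls of Col14a1 and Col16a1 in SAG against cyclopamine held with any single array left out. Col9a1, Col9a2 and Col9a3, which decorate cartilage fibrils, and Col19a1, Col20a1 and Col22a1 had changes of -0.06 to 0.32 between SAG and cyclopamine and passed in no comparison.

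Among the remaining classes, Col25a1 and Col15a1 passed. Col25a1, a membrane-spanning collagen known from mouse motor neurons and muscle, was at 8.73, 9.58, 9.33 and 8.69 with SAG, 7.29, 6.47 and 7.28 with cyclopamine and 8.17, 8.63 and 7.56 with vehicle. SAG exceeded cyclopamine 4.20-fold (2.07 ± 0.31, limma adjusted p = 0.00164), and both changes against vehicle did not pass (0.97 ± 0.31 and -1.10 ± 0.34, limma adjusted p = 0.257 and 0.0937). All SAG arrays lay above and all cyclopamine arrays below the vehicle arrays. Nerve and Schwann cell markers overlapped between groups, with list means of 6.27 to 7.13 with SAG, 6.002 to 7.48 with cyclopamine and 6.46 to 7.65 with vehicle.

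Col15a1, a multiplexin that ties basement membranes to fibrils, was at 8.20, 7.92, 7.64 and 8.01 with SAG, 8.69, 9.47 and 8.83 with cyclopamine and 8.90, 8.48 and 8.95 with vehicle. Cyclopamine and vehicle overlapped and all SAG arrays were lower. SAG against cyclopamine was -1.05 ± 0.21 (limma adjusted p = 0.00870). Against vehicle SAG was at -0.83 ± 0.21 (limma adjusted p = 0.135), which passed without cyclopamine replicate 2 (0.0435). Col18a1, the other multiplexin and source of endostatin, was at 13.08 to 13.97 with SAG, 13.63 to 14.24 with cyclopamine and 13.42 to 13.81 with vehicle, and passed in no comparison. The calls of Col25a1 and Col15a1 held with any single array left out.

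Col23a1, another membrane-spanning chain, was at 10.84 to 12.04 with SAG, 10.24 to 11.54 with cyclopamine and 11.85 to 12.72 with vehicle. Cyclopamine lay below vehicle without overlap (-1.39 ± 0.40) but did not pass (limma adjusted p = 0.0754). Col26a1, first described in mouse testis and ovary, was at 11.23 to 11.70 with SAG, against 10.57 to 11.21 with vehicle (0.57 ± 0.31, limma adjusted p = 0.549). On the cyclopamine arrays it was at 10.68, 12.03 and 10.69, so that cyclopamine replicate 2 stood apart, and SAG against cyclopamine was 0.32 ± 0.31 with it and 0.77 without it (limma adjusted p = 0.0309). Col8a1, Col8a2 and Col10a1 of the short-chain networks, Col13a1, Col17a1 of hemidesmosomes and Col28a1 of peripheral nerve passed in no comparison, with changes between SAG and cyclopamine of -0.09 to 0.40. Col8a2 passed in that comparison without SAG replicate 1 (0.56, limma adjusted p = 0.0488).

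Collagen chains need a set of enzymes and chaperones before they leave the cell. Counts for the lists of such genes stand against the shares of all probe sets given above, which were 5.42% higher and 5.92% lower for SAG against cyclopamine, 2.17% and 2.95% for cyclopamine against vehicle, and 0.45% and 0.279% for SAG against vehicle. Of 28 measured genes of collagen modification and secretion, 11 were higher with SAG than with cyclopamine, 1 was lower and 16 did not pass (median 0.60). The smallest p-values were those of Plod1, a lysyl hydroxylase (1.27 ± 0.15), Creb3l1, a transcription factor of secretory load (1.23 ± 0.18), Adamts3, a procollagen N-proteinase (2.00 ± 0.31), and Fkbp14, a prolyl isomerase (1.09 ± 0.18). Their limma adjusted p lay between 0.000301 and 0.00306 and held with any single array left out. With cyclopamine against vehicle 2 of the 28 fell and 0 rose (13 lower and 0 higher at an unadjusted p under 0.05 in limma, against 9.9% and 8.96% of all probe sets, median -0.45). That count of 2 is near the 5.12% of all probe sets called. It was 0 without cyclopamine replicate 1 or 3 or vehicle replicate 1 or 3, 1 without SAG replicate 2, 3 or 4 or vehicle replicate 2, and 6 without cyclopamine replicate 2. The 2 genes were P3h3, of the prolyl 3-hydroxylase family (-0.84 ± 0.17, limma adjusted p = 0.0208), and Crtap, the partner of a prolyl 3-hydroxylase (-0.55 ± 0.13, limma adjusted p = 0.0402). P3h3 ended without cyclopamine replicate 1 or 3 or any one vehicle array (0.0524 to 0.0751). Crtap ended on omission of each array other than SAG replicate 1, with quantile normalization again and with median centring (0.0506 to 0.131).

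With SAG against vehicle, Adamts3 rose and Tll1, a tolloid proteinase that trims procollagens, fell, while 26 genes did not pass (median 0.20). The count of 2 was 0 without SAG replicate 1, 2 or 4 or any one vehicle array, 1 without SAG replicate 3 or cyclopamine replicate 1, and 3 without cyclopamine replicate 2. Adamts3 was at 8.52, 8.39, 7.44 and 8.72 on the SAG arrays, against 6.43, 6.47 and 6.45 on the vehicle arrays (1.82 ± 0.31, limma adjusted p = 0.0262). Tll1 was at 7.98, 8.10, 7.66 and 7.34 with SAG, against 9.23, 10.03 and 9.98 with vehicle (-1.98 ± 0.36, limma adjusted p = 0.0360). Neither pair of groups overlapped. The Adamts3 call ended without SAG replicate 1, 2 or 4 or any one vehicle array (0.0598 to 0.132), and that of Tll1 without any one SAG or vehicle array or cyclopamine replicate 1 (0.0532 to 0.200).

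Cross-linking enzymes fell in part with cyclopamine, with 3 of 6 lower than vehicle and 3 not passing (median -0.73). The 3 not passing were Lox (-0.71 ± 0.25), Loxl1 (0.63 ± 0.28) and Loxl4 (0.22 ± 0.13). Tgm2, a transglutaminase, fell by 1.46 (SE 0.24, limma adjusted p = 0.00769) and the lysyl oxidase family gene Loxl3 by 1.02 (SE 0.18, limma adjusted p = 0.00980), both with any single array left out. Pxdn, peroxidasin, which cross-links type IV collagen, fell by 0.75 (SE 0.15, limma adjusted p = 0.0181), a call that ended without cyclopamine replicate 1 or vehicle replicate 2 or 3 (0.0547 to 0.0637). The same 3 genes were higher with SAG than with cyclopamine, Tgm2 by 2.15 ± 0.23, Loxl3 by 1.24 ± 0.17 and Pxdn by 0.48 ± 0.14. The first 2 held with any single array left out, and Pxdn (limma adjusted p = 0.0488) ended without any one SAG or cyclopamine array or vehicle replicate 2 (0.0526 to 0.162). With SAG against vehicle 0 of 6 passed. At an unadjusted p under 0.05 in limma 2 were higher and 1 lower, against 5.25% and 5.51% of all probe sets. The lower gene was Lox (-0.64 ± 0.23), which was at 0.07 ± 0.23 between SAG and cyclopamine.

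Of 8 collagen receptors, 1 passed in SAG against cyclopamine, a share near the 11.3% of all probe sets called there. It was Mrc2, the endocytic receptor that clears collagen fragments (0.99 ± 0.25, limma adjusted p = 0.0250). That call ended without any one SAG array or cyclopamine replicate 1 or 3 (0.0533 to 0.102). With SAG against vehicle 0 of 8 passed at either p in limma. With cyclopamine against vehicle 0 passed, 2 being lower at an unadjusted p under 0.05 in limma, against 9.9% of all probe sets. Without cyclopamine replicate 2, 2 receptors passed in SAG against cyclopamine and 1 in cyclopamine against vehicle.

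Among 18 fibril-binding proteins, 9 were higher with SAG than with cyclopamine, 1 was lower and 8 did not pass (median 0.61). Omd, osteomodulin (2.64 ± 0.27), Ogn, osteoglycin (1.30 ± 0.17), and Fn1, fibronectin (1.02 ± 0.13), were higher. Dpt, dermatopontin, which speeds fibril assembly, was lower (-3.21 ± 0.34). Their limma adjusted p lay between 0.000177 and 0.000607 and held with any single array left out. Omd was dim, with group means of 6.54 with SAG, 3.91 with cyclopamine and 5.13 with vehicle. Its cyclopamine and vehicle means lay below the lower quartile of all probe set means (5.19), which limits how its changes can be read. Against vehicle, cyclopamine lowered 4 of 18 and raised 1 (median -0.32). These 5 calls numbered 1 without cyclopamine replicate 3 or vehicle replicate 2 or 3, 2 without cyclopamine replicate 1, 3 without vehicle replicate 1 and 8 without cyclopamine replicate 2. Lum, lumican, fell by 0.75 (SE 0.14, limma adjusted p = 0.0125), Dpt rose by 1.73 ± 0.36 (0.0221), and Ogn (-0.82 ± 0.18, 0.0269) and Fn1 (-0.64 ± 0.14, 0.0289) fell, as did Omd. Lum held with any single array left out. Dpt ended without cyclopamine replicate 3 or any one vehicle array (0.0533 to 0.0769), Ogn without cyclopamine replicate 1 or 3 or any one vehicle array (0.0622 to 0.0943), and Fn1 without cyclopamine replicate 1 or 3 or vehicle replicate 2 or 3 (0.0689 to 0.0990). Omd (0.0402) ended without SAG replicate 2 or 3, cyclopamine replicate 1 or 3 or vehicle replicate 2 or 3 (0.0582 to 0.130).

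With SAG against vehicle 3 of the 18 rose and 0 fell (median 0.29). The count was 4 without cyclopamine replicate 2, 1 without SAG replicate 2 or 3, and 0 without vehicle replicate 1 or 3. At an unadjusted p under 0.05 in limma, 7 were higher and 1 lower, against 5.25% and 5.51% of all probe sets. Fmod, fibromodulin, rose by 1.39 ± 0.20 (limma adjusted p = 0.0137), Aspn, asporin, by 1.47 ± 0.24 (0.0228) and Omd by 1.42 ± 0.27 (0.0483). All 3 encode small leucine-rich proteins that bind collagen, and their SAG and vehicle arrays did not overlap. Fmod ended without vehicle replicate 1 or 3 (0.0577 to 0.0640), and Aspn without SAG replicate 2, 3 or 4 or any one vehicle array (0.0612 to 0.141). Omd ended without SAG replicate 2, 3 or 4, cyclopamine replicate 1 or 3 or vehicle replicate 1 or 3, and with quantile normalization again (0.0583 to 0.178).

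**Figure D5:**
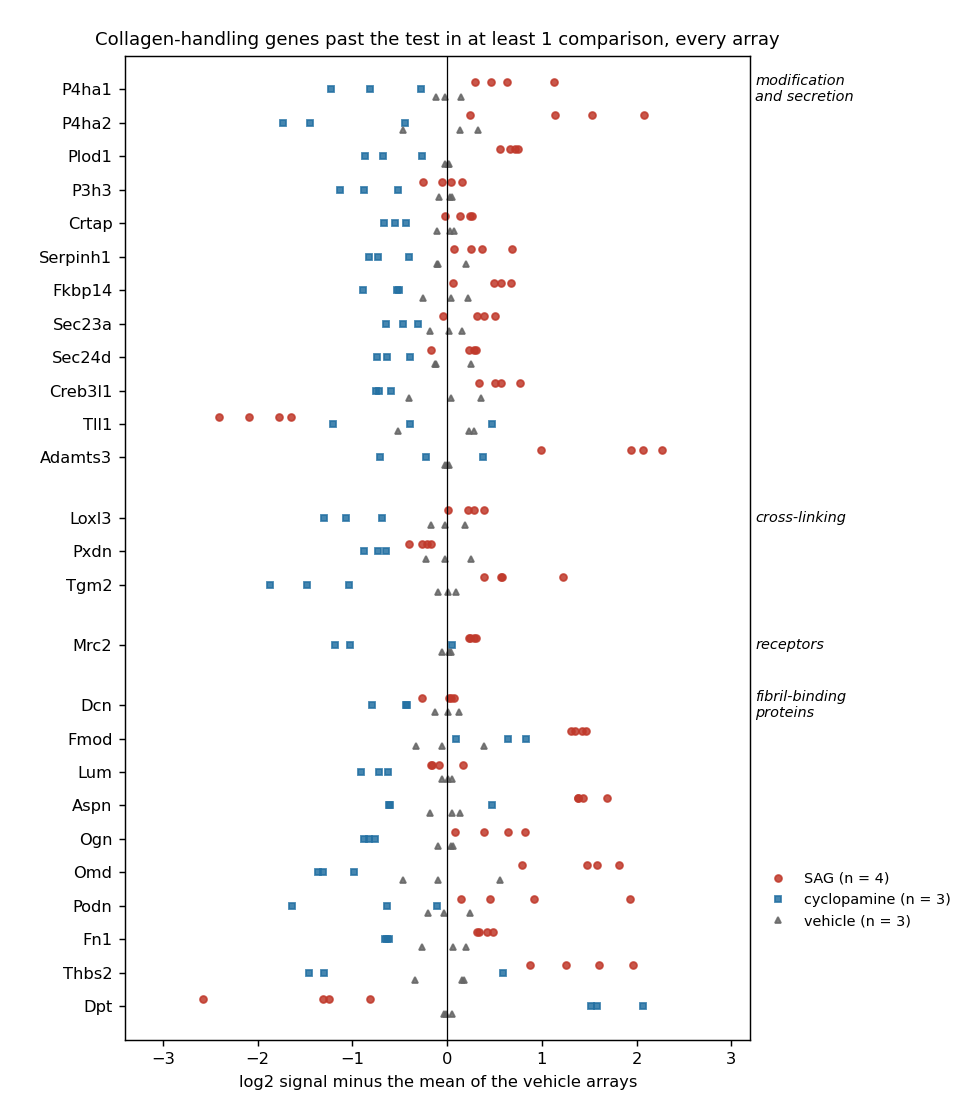
Log2 signal of every array minus the mean of the vehicle arrays (x axis) for the collagen-handling genes past the test in at least 1 comparison (rows, grouped by list); red circles are SAG, blue squares cyclopamine and grey triangles vehicle arrays. Dpt and Tll1 lie left with SAG, while most other genes lie left with cyclopamine.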

How the data were processed

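RNA from 10 cultures was measured on Affymetrix arrays after labelling with a whole-transcript kit, per the labels' protocols. What the authors deposited is a table of 22206 probe sets in log2 signal. The base of the log was inferred from the range of values (2.95 to 18.7). The authors' summarization, normalization, software and genome build were not given in the sources used here. Through a platform annotation table, 19572 probe sets carried a single gene symbol and 0 carried several, while 2634 stayed unnamed here.

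A mean per group was fitted to all probe sets of all 10 arrays with limma 3.58.1 in R 4.3.3 (lmFit, eBayes, 7 residual and 3.70 prior degrees of freedom). Tests were two-sided. The p-values were adjusted by Benjamini and Hochberg's method across the whole table, with a threshold of 0.05. No filter was applied. The scripts were tested on simulated data. The design calls the samples biological replicates, and their number limits the precision. Replicate numbers 1 to 3 recur in each group, but 1 of 9 same-numbered pairs of arrays had deviations correlated above 0.1 (-0.19 to 0.24), so arrays were not paired.

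Members, classes and lists were written from textbook knowledge with earlier results of these data known. Values on every array are given for each member past the test in at least 1 comparison. Up to 4 genes are named per list and comparison, by smallest p, and some further genes are given for contrast. Alternatives were further normalization, filtering, other variance models and thresholds, and leaving out each array. Omission of both SAG replicate 1 and cyclopamine replicate 2 was added after seeing the data. Promoter windows came from a RefSeq table of GRCm38.p6. Figures were drawn with matplotlib 3.10.9.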

Additional observations from a re-analysis of the deposited data

Results flagged for a closer look

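Of 42 collagen genes, 1 had a SAG array that stood far from the other 3. For Col14a1, SAG replicate 1 was at 10.99, against 10.71 to 10.72 on the other SAG arrays, so that its gap took 0.945 of the range of the group, above the critical value of 0.829 for 4 arrays. Chance alone flags about 1 in 20 groups. Without that array the rise against vehicle was 0.97, compared with 1.04 with it. The call ended without it (limma adjusted p = 0.0648), and it ended as well without SAG replicate 2, 3 or 4 (0.0685, 0.0753 and 0.0825). Groups of 3 arrays were not examined in this way.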

How the results depend on the processing

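No collagen gene past the test changed direction under any alternative run. The 20 calls of SAG against cyclopamine ranged from 17 to 21 with single arrays left out and stayed within 1.5 times under the other settings. The 12 calls of cyclopamine against vehicle ranged from 6 to 13 with single arrays left out. They numbered 5 with only the compared groups in the fit, 5 with unmoderated variances and 4 at a threshold of 0.01, and 8 of the same genes passed with each array centred on its median. The 2 calls of SAG against vehicle ranged from 0 to 4 with single arrays left out, and numbered 5 with array weights, 0 with unmoderated variances, 0 at a threshold of 0.01, and 4 with SAG replicate 1 and cyclopamine replicate 2 left out together. With the replicate number as a block, which the pairing check did not bear out, the counts were 1 for SAG against vehicle, 7 for cyclopamine against vehicle and 16 for SAG against cyclopamine. A stricter threshold lowers counts by construction. Leaving out arrays lowered some counts and raised others, and for this and the other settings the cause was not tested. Each collagen gene had 1 probe set, so averaging probe sets changed no collagen call. Dim probe sets limit what can be seen for Col5a3, Col8a1, Col10a1, Col17a1 and Col19a1.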

Other observations

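By RefSeq order, 8 pairs of measured collagen genes are neighbours with no other protein-coding gene between them, and their changes between SAG and cyclopamine were alike in some and not in others. Col4a1 and Col4a2 (2.47 and 2.37) and Col6a1 and Col6a2 (1.01 and 1.03) were both higher with SAG, as were Col3a1 and Col5a2 (0.74 and 1.40). Col6a5 and Col6a6 (-3.33 and -2.24) were both lower, while Col6a4, on the other side of Col6a5, was at 0.15 ± 0.58. Col4a3 and Col4a4 were at 0.00 and 1.47, and only Col4a4 passed. Col4a5 and Col4a6 (0.53 and 0.23) and Col9a1 and Col19a1 (0.05 and -0.00) did not pass.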
